A study of Mus musculus with 13 samples.

Results

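The genes described here are 42 cell cycle genes, listed by symbol, of 24394 genes in a table of RNA-seq counts from mouse cells. They were divided into 18 genes of DNA replication (the Mcm genes, Pcna, Rrm2 and their partners) and 24 genes of mitosis. The question is when cells that are driven from a fibroblast state towards a thymic epithelial state lower the genes of division. The cells were primary mouse embryonic fibroblasts (MEF) from E13.5 embryos, with the genotype iFoxn1/+, which carries an inducible copy of Foxn1. Foxn1 controls gene expression in the epithelium of the thymus, and thymic epithelial cells (TEC) depend on it. MEF without treatment gave 2 libraries. A Cre plasmid, pPGK-Cre-bpA, delivered by Nucleofection, switched on the iFoxn1 allele, and the resulting induced TEC (iTEC) were taken after 2 days (2 libraries) or 10 days (3 libraries). At 12 days the iTEC were separated into Epcam-negative and Epcam-positive cells, with 2 libraries of each. Fetal TEC from E15.5 embryos, with no treatment, gave 2 libraries. The submitters' protocol text is the same for every sample. The genotype field is not filled in, the gate used on the day 2 and day 10 cells is not given, and nothing says whether the untreated MEF went through Nucleofection without Cre. Nothing says that replicates were separate cultures or embryos either, so p-values measure the spread between these libraries, which may be technical.

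A dividing cell licenses its DNA in G1, when Cdc6 and Cdt1 load the Mcm2 to Mcm7 ring on replication origins. In S phase Cdc45 and the GINS complex turn that ring into the active helicase, Pcna clamps the polymerases to DNA, and ribonucleotide reductase, thymidylate synthase and thymidine kinase supply deoxynucleotides. E2F factors and cyclin E drive entry into S phase. Mitosis genes are switched on later, under Mybl2 and Foxm1: cyclins A and B activate Cdk1, Aurora and Polo kinases build the spindle, the checkpoint holds the chromosomes, and Cdc20 with Ube2c starts the destruction of cyclins. Primary fibroblasts divide in culture, and fetal TEC divide while the thymus grows.

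The 13 libraries held 35805780 to 86465460 counted reads. Levels are given in CPM, a gene's counts scaled to a common library total with edgeR's TMM factors, in order of replicate number. The summed CPM of 9 fibroblast markers was 57161 to 61625 in MEF, 6574 to 7684 at day 2 and 12633 to 13603 at day 10. Of these 9, 6 were higher at day 10 than at day 2 and 3 were lower. Col1a1 alone went from 3044 and 3724 CPM at day 2 to between 8398 and 9155 CPM at day 10. The summed CPM of 8 TEC markers was 16.1 to 21.1 in MEF, 1457 to 1465 at day 2, 4882 to 5328 at day 10 and 32114 to 48475 in fetal TEC. These 8 include Foxn1 itself, which was at 382 and 299 CPM at day 2. Replicate 2 of the Epcam-positive cells and both fetal TEC libraries stood apart: genes of long exon length were low in them. Exon length here is the union of a gene's annotated exons, so its transcript forms are merged. Over 16362 genes, the rank correlation of a gene's deviation with its exon length was -0.427 to -0.383 in these 3 libraries and 0.235 to 0.376 in the other 10. This touches the members, whose exon lengths run from 1440 to 11130 bases, so the comparisons of members below are also given without the Epcam-positive pair or with an offset for gene length where that moves them. Xist was 688 to 2475 CPM in MEF and Epcam-negative cells and at most 1.27 CPM in day 2, day 10 and Epcam-positive cells, where 65.6 to 302 CPM of Y-linked genes were found, so the cultures did not all come from embryos of the same sex. The summed CPM of 12 macrophage markers was 3136 to 3305 in MEF, with all 12 detected, and 12.0 to 23.5 in day 2, day 10 and Epcam-negative cells. In bulk RNA, fewer dividing cells and less of these RNAs per cell cannot be told apart.

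RefSeq gave a promoter for 34 of the 42 members. The promoters of 5 members are shown because they hold the sites that the textbook model assigns to each class. They were chosen after the sites had been searched. Each line gives the 150 bases before the RefSeq transcription start, 5′ to 3′ on the gene's strand. Capitals mark the cell cycle homology region (CHR, TTTGAA), the CCAAT box and the E2F site (TTCCCGC or TTGGCGC), each searched on both strands, so that TTCAAA and ATTGG are CHR and CCAAT sites on the other strand.
Mcm6, GRCm38.p6 chr1:128359706-128359855, minus strand: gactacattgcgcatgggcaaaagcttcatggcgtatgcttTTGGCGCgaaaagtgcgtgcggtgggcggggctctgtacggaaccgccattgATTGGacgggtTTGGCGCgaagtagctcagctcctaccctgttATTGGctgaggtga
Rrm1, GRCm38.p6 chr7:102441545-102441694, plus strand: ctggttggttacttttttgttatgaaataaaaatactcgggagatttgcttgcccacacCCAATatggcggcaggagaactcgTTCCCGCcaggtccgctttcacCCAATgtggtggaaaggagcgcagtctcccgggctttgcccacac
Cdk1, GRCm38.p6 chr10:69352913-69353062, minus strand: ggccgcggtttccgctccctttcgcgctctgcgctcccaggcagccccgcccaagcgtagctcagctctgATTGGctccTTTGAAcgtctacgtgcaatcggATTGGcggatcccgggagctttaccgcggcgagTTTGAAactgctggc
Cdc20, GRCm38.p6 chr4:118437344-118437493, minus strand: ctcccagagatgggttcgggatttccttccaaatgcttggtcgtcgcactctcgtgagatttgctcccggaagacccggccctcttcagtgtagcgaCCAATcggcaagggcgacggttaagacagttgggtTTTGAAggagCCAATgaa
Top2a, GRCm38.p6 chr11:99024190-99024339, minus strand: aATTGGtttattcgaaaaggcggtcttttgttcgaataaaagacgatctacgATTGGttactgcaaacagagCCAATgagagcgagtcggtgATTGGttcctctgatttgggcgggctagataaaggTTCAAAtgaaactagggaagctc
Mcm6, a ring subunit of the replicative helicase, has 2 E2F sites and 2 CCAAT boxes in these bases. Rrm1, the large subunit of ribonucleotide reductase, has 1 E2F site between its 2 CCAAT boxes. Cdk1, the mitotic kinase, has 2 CHR sites and 2 CCAAT boxes, and Cdc20, the activator of cyclin destruction, has 1 CHR site between 2 CCAAT boxes. Top2a, the topoisomerase that untangles chromosomes, has 1 CHR site and 4 CCAAT boxes.

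Over a window of 250 bases, a CHR was found in 8 of 19 mitosis members with a promoter (42.1%), in 2 of 15 replication members (13.3%) and in 18.3% of 27025 genes in the RefSeq table. The CCAAT box was found in 84.2% of mitosis members, 60.0% of replication members and 37.5% of all genes. The E2F site was found in 5 of 15 replication members (33.3%), 3 of 19 mitosis members (15.8%) and 6.45% of all genes. Exact 95% intervals overlapped between the classes for each of these sites. For the CHR they were 1.66 to 40.5% for replication and 20.25 to 66.5% for mitosis. For the CCAAT box they were 32.3 to 83.7% and 60.4 to 96.6% in the same order. For the E2F site they were 11.8 to 61.6% for replication and 3.38 to 39.6% for mitosis. Over 100 bases the E2F site was found in 2 of 15 replication members, 1 of 19 mitosis members and 3.06% of all genes. ATTGG and TTGGCGC can share the letters TTGG where they overlap, which they do in none of the 5 promoters shown. These matches are a description of letters, not of binding. In the mm10 build, as annotated by GENCODE, Mcm6 lies at chr1:128331590-128359664, Rrm1 at chr7:102441695-102469771, Cdk1 at chr10:69335146-69352938, Cdc20 at chr4:118432901-118437352 and Top2a at chr11:98992943-99024189. The RefSeq and GENCODE starts differ for Mcm6, Cdk1 and Cdc20. Some of the bases shown for Cdk1 and Cdc20 therefore lie inside the GENCODE gene, and those shown for Mcm6 stop short of it.

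The levels are given first by role. Among the genes of licensing and the fork, Mcm2, Mcm4 and Mcm6 encode subunits of the helicase ring and Pcna encodes the sliding clamp. Mcm2 had 54.1 and 35.4 CPM in MEF, 83.3 and 82.2 at day 2, 22.7, 20.7 and 19.6 at day 10, 28.3 and 28.3 in Epcam-negative cells, 27.8 and 25.4 in Epcam-positive cells and 153 and 105 in fetal TEC. Mcm4 had 67 and 77 CPM in MEF, 161 and 149 at day 2, 44.1, 41.7 and 41.3 at day 10, 53.6 and 48 in Epcam-negative cells, 51.9 and 19.8 in Epcam-positive cells and 144 and 99.5 in fetal TEC. Mcm6 had 97.4 and 105 CPM in MEF, 163 and 179.7 at day 2, 41.7, 37.5 and 39.4 at day 10, 49.6 and 45.4 in Epcam-negative cells, 41.6 and 37.7 in Epcam-positive cells and 291 and 182 in fetal TEC. In all 3 ring genes, both day 2 libraries stood above both MEF libraries and every library from day 10 and day 12 stood below them, without overlap. Pcna had 69.6 and 80 CPM in MEF, 108 and 116 at day 2, 50.4, 47.7 and 50.2 at day 10, 60 and 58.8 in Epcam-negative cells, 49.2 and 82.7 in Epcam-positive cells and 179.9 and 181 in fetal TEC. Pcna followed the same order up to day 10, but Epcam-positive replicate 2 stood above both MEF libraries. The other 7 genes of this role, Cdc6, Cdt1, Mcm3, Mcm5, Mcm7, Cdc45 and Gins2, also stood higher in both day 2 libraries than in both MEF libraries. Of all genes tested, 28.9% stood higher in that way, while 33% stood below both MEF libraries at day 10 and 32.8% in Epcam-negative cells.

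Nucleotide supply showed a wider range. Rrm2 encodes the small, cell cycle regulated subunit of ribonucleotide reductase and Tyms encodes thymidylate synthase. Rrm1 had 149 and 218 CPM in MEF, 240.3 and 218 at day 2, 91.2, 92 and 90 at day 10, 90.9 and 81.6 in Epcam-negative cells, 80.3 and 48.5 in Epcam-positive cells and 187 and 121 in fetal TEC. Rrm2 had 44.9 and 40.3 CPM in MEF, 123 and 133 at day 2, 26.6, 24.4 and 24 at day 10, 26.5 and 23.1 in Epcam-negative cells, 29.3 and 17.5 in Epcam-positive cells and 181 and 169 in fetal TEC. Tyms had 17.9 and 16.9 CPM in MEF, 34 and 33.4 at day 2, 11.5, 10.4 and 11.1 at day 10, 13.4 and 11.2 in Epcam-negative cells, 10.9 and 18.9 in Epcam-positive cells and 89.4 and 47.2 in fetal TEC. The day 2 pair stood well above the MEF pair for Rrm2 and Tyms, while for Rrm1 MEF replicate 2 lay within the day 2 pair. Tk1, the thymidine kinase of the salvage path, was the member that kept the largest share of its day 2 level: its day 10 mean was 62.1% of day 2 and 138% of MEF, and its day 10 and MEF libraries overlapped.

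Of the genes of S-phase entry, Ccne1 encodes cyclin E1 and E2f1 a transcription factor that activates S-phase genes. Ccne1 had 22.2 and 24.5 CPM in MEF, 80.3 and 71.7 at day 2, 9.24, 8.46 and 9.13 at day 10, 7.54 and 7.62 in Epcam-negative cells, 14.9 and 13 in Epcam-positive cells and 19.2 and 48.8 in fetal TEC. E2f1 had 18.6 and 19.1 CPM in MEF, 17.7 and 20.7 at day 2, 10.5, 9.89 and 10.2 at day 10, 11 and 8.02 in Epcam-negative cells, 14.1 and 14.1 in Epcam-positive cells and 18.9 and 13.9 in fetal TEC. Ccne1 was high at day 2 alone among the cultured groups, while the E2f1 levels of MEF and day 2 overlapped. Ccne2, the second cyclin E gene, had a day 10 mean that was 14.3% of MEF, the lowest such share of the 42 members.

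Foxm1 and Mybl2 encode the activators of the mitotic program. Foxm1 had 53 and 40.4 CPM in MEF, 86 and 82 at day 2, 25.3, 26 and 23.8 at day 10, 26.9 and 26.3 in Epcam-negative cells, 19 and 3.65 in Epcam-positive cells and 25.2 and 23.1 in fetal TEC. Mybl2 had 12.6 and 9.17 CPM in MEF, 20.1 and 22.3 at day 2, 3.62, 3.61 and 3.03 at day 10, 3.97 and 3.54 in Epcam-negative cells, 3.23 and 1.46 in Epcam-positive cells and 43.5 and 27.4 in fetal TEC. Both were highest at day 2 among the cultured groups. In both fetal TEC libraries Mybl2 stood above MEF and Foxm1 below it. A length offset was also used, a smooth curve for each library. It followed each gene's log2 CPM, minus its mean over all libraries, against gene length. It also takes out any group difference that goes with length. With this offset, the log2 difference of fetal TEC from MEF went from -0.95 to -0.07 for Foxm1, passing the test in neither. For Mybl2 the difference went from 1.70 to 1.88.

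Cyclins and their kinase came next in the cycle. Ccna2 encodes cyclin A2, which acts in S phase and G2, and Ccnb1 encodes cyclin B1, which activates Cdk1 for mitosis. Ccna2 had 74.2 and 97.2 CPM in MEF, 92.9 and 87.8 at day 2, 23.8, 23.6 and 22.2 at day 10, 26.5 and 20 in Epcam-negative cells, 16.7 and 7.98 in Epcam-positive cells and 147 and 127 in fetal TEC. Ccnb1 had 31.8 and 34.4 CPM in MEF, 37.7 and 45.5 at day 2, 9.63, 8.76 and 9.18 at day 10, 8.39 and 6.47 in Epcam-negative cells, 7.88 and 2.31 in Epcam-positive cells and 123 and 145 in fetal TEC. Cdk1 had 46.5 and 38.4 CPM in MEF, 77.1 and 75.5 at day 2, 16.9, 18.9 and 17.4 at day 10, 17.2 and 15.48 in Epcam-negative cells, 18.9 and 21.7 in Epcam-positive cells and 112 and 161 in fetal TEC. Both day 2 libraries stood above both MEF libraries for Ccnb1 and Cdk1, and within the range of the MEF pair for Ccna2. Cdc20 and Ube2c encode the activator and the ubiquitin-conjugating enzyme of the complex that destroys cyclins at the end of mitosis. Cdc20 had 32.6 and 17 CPM in MEF, 40.2 and 53.2 at day 2, 9.86, 9.56 and 9.59 at day 10, 10.1 and 9.03 in Epcam-negative cells, 10.2 and 13.9 in Epcam-positive cells and 207 and 197 in fetal TEC. Ube2c had 41.3 and 40.5 CPM in MEF, 41.5 and 38.8 at day 2, 10.3, 10.2 and 9.39 at day 10, 11 and 9.71 in Epcam-negative cells, 12.6 and 1.16 in Epcam-positive cells and 89.5 and 63.2 in fetal TEC. Ube2c overlapped between MEF and day 2 and was low from day 10 on. In Epcam-positive replicate 2 it stood below replicate 1, and Cdc20 above.

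**Figure D1:**
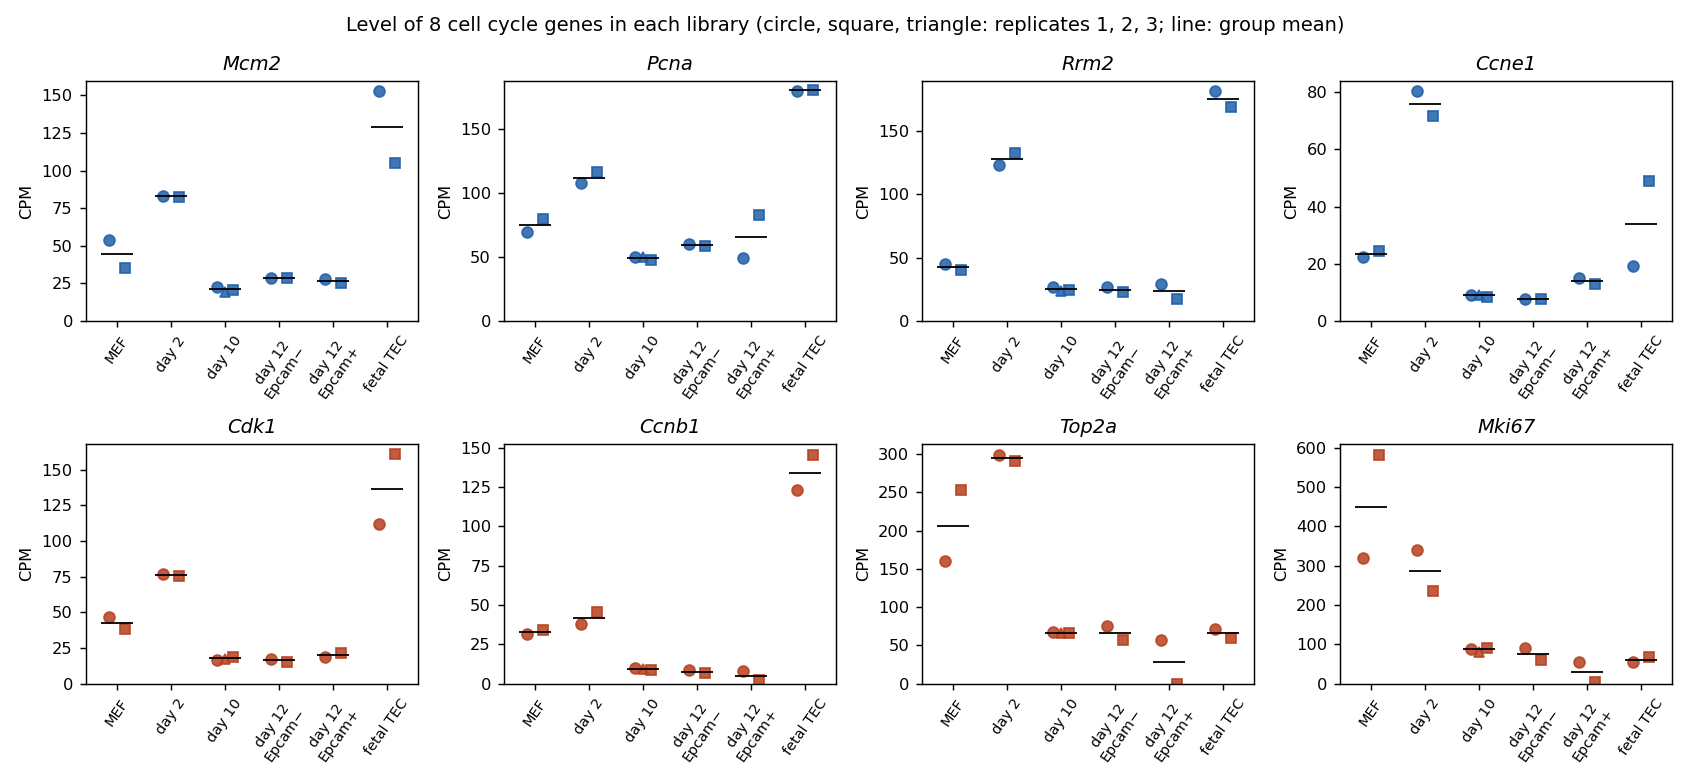
CPM of 8 members in each of the 13 libraries, on linear axes from 0, with 1 point per library (circle, square and triangle for replicates 1, 2 and 3) and a line at the group mean. Rrm2 and Ccne1 are high at day 2. All 8 genes are lower at day 10 than at day 2 without overlap, as are 35% of all genes tested. In Epcam-positive replicate 2 Top2a and Mki67 drop far below replicate 1 while Pcna and Cdk1 do not.

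The spindle checkpoint and the kinetochore, where spindle fibres attach, were represented by Bub1b, a checkpoint kinase-like protein, and by Cenpe and Cenpf, a kinetochore motor and a kinetochore protein. Bub1b had 46.7 and 49.8 CPM in MEF, 65.5 and 59.6 at day 2, 9.49, 9.69 and 8.87 at day 10, 10.2 and 9.83 in Epcam-negative cells, 9.19 and 1.05 in Epcam-positive cells and 100.5 and 27.4 in fetal TEC. Cenpe had 74.5 and 151 CPM in MEF, 131 and 102 at day 2, 17.5, 16.6 and 15.7 at day 10, 14.2 and 10.2 in Epcam-negative cells, 12.7 and 0 in Epcam-positive cells and 28.6 and 35.5 in fetal TEC. Cenpf had 64.3 and 122 CPM in MEF, 98.5 and 75 at day 2, 22.4, 22.7 and 20.3 at day 10, 21.6 and 14.6 in Epcam-negative cells, 15.4 and 3.06 in Epcam-positive cells and 31.8 and 16.7 in fetal TEC. The MEF pair spread widely for Cenpe and Cenpf, with replicate 2 above both day 2 libraries. No count of Cenpe was found in Epcam-positive replicate 2. Aurkb and Birc5 encode the kinase and the survivin subunit of the chromosomal passenger complex, and Plk1 is the Polo kinase. Aurkb had 19.2 and 15.6 CPM in MEF, 23.9 and 30 at day 2, 6.69, 5.69 and 5.97 at day 10, 7.73 and 6.29 in Epcam-negative cells, 6.8 and 8.63 in Epcam-positive cells and 130.2 and 80 in fetal TEC. Plk1 had 45.2 and 43.3 CPM in MEF, 56.7 and 54.6 at day 2, 9.23, 9.25 and 8.14 at day 10, 9.12 and 8.34 in Epcam-negative cells, 9.61 and 0.18 in Epcam-positive cells and 87.9 and 63.9 in fetal TEC. Birc5 had 22.6 and 23.2 CPM in MEF, 43.1 and 39.8 at day 2, 8.16, 8.43 and 7.94 at day 10, 8.91 and 6.9 in Epcam-negative cells, 7.92 and 6.06 in Epcam-positive cells and 81.2 and 62.2 in fetal TEC. All 3 were lower in every day 10 and Epcam-negative library than in either MEF library. Of all genes tested, 33% were lower in that way at day 10 and 32.8% in Epcam-negative cells.

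For the spindle and for cytokinesis, Kif20a is a motor of the central spindle, Prc1 bundles its microtubules and Tpx2 activates Aurora A on the spindle. Kif20a had 57.1 and 55.5 CPM in MEF, 67.9 and 67.4 at day 2, 13.8, 14.5 and 12.9 at day 10, 13.2 and 11.7 in Epcam-negative cells, 13.6 and 3.26 in Epcam-positive cells and 78.8 and 79.6 in fetal TEC. Prc1 had 72.2 and 122 CPM in MEF, 67.8 and 69.5 at day 2, 20.9, 19.6 and 19.9 at day 10, 20.8 and 17.5 in Epcam-negative cells, 21.5 and 0.334 in Epcam-positive cells and 47.4 and 47.1 in fetal TEC. Tpx2 had 82 and 106 CPM in MEF, 209.6 and 176 at day 2, 46.6, 45.6 and 46.7 at day 10, 39.5 and 35.7 in Epcam-negative cells, 44.7 and 11.3 in Epcam-positive cells and 81.6 and 92.7 in fetal TEC. Prc1 stood below the MEF pair in both day 2 libraries, whereas Tpx2 and Kif20a stood above it. Among genes of chromosome structure, Mki67 encodes Ki-67, the coat protein of mitotic chromosomes that is used as a marker of dividing cells. Top2a had 159.7 and 253 CPM in MEF, 299 and 291 at day 2, 67.8, 65.8 and 65.9 at day 10, 75.6 and 57.1 in Epcam-negative cells, 57.2 and 0.154 in Epcam-positive cells and 71.7 and 60 in fetal TEC. Mki67 had 318 and 581 CPM in MEF, 339 and 235 at day 2, 88.9, 91.6 and 80.6 at day 10, 90.8 and 61.1 in Epcam-negative cells, 55.3 and 4.62 in Epcam-positive cells and 54.5 and 68.1 in fetal TEC. MEF replicate 2 was well above replicate 1 for both, and for Mki67 the day 2 pair overlapped the MEF pair.

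The comparison of day 2 with MEF asks whether the genes of division had moved in the first days after Cre. Rrm2 and Ccne1 rose, and no member fell. Rrm2 was 3.0-fold higher at day 2 (log2 1.59 ± 0.29 (SE), adjusted p = 0.0131) and Ccne1 3.26-fold higher (log2 1.70 ± 0.40 (SE), adjusted p = 0.0382) by edgeR's quasi-likelihood test with Benjamini-Hochberg adjustment over 17004 genes. Thus 2 of 42 members were called higher and none lower, where 2.87% of all genes tested were called higher and 2.65% lower. Counted by libraries alone, 30 members were higher in both day 2 libraries than in both MEF libraries, 15 of replication and 15 of mitosis, and 2 were lower, Prc1 and Nusap1. Of all genes tested, 28.9% were higher in that way and 29.1% lower. The median log2 difference was 0.83 for replication members, 0.34 for mitosis members and 0 for all genes. Mcm2, for example, was 1.85-fold higher in mean CPM without passing the test (log2 0.89 ± 0.30 (SE), adjusted p = 0.131), and Mki67 was 0.638 of its MEF mean (log2 -0.65 ± 0.81 (SE), adjusted p = 0.83).

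This count moved with the libraries in the fit. Without the Epcam-positive pair, 18 members rose, 11 of replication and 7 of mitosis, where 10.7% of all genes rose, and with only MEF, day 2, day 10 and Epcam-negative cells 24 rose, where 19.1% of all genes did. Leaving out 1 library of the 13 gave 17 members without either Epcam-positive library, 3 without either fetal TEC library, none without MEF replicate 2 or either day 2 library, and 1 without any other. Embryo sex by Xist and the macrophage markers changed together with the step from MEF to day 2, and their part in it cannot be told apart from that of Cre and of time.

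Between day 2 and day 10 most of the genes of division fell. Of the 42 members, 25 were called lower, 14 of 18 for replication and 11 of 24 for mitosis, and none higher, where 4.41% of all genes tested were called lower and 8.24% higher. In every one of the 42, all 3 day 10 libraries were below both day 2 libraries, as 35% of all genes were. The median log2 difference was -2.06 for replication members and -2.14 for mitosis members, against 0.02 for all genes. At day 10 the mean level was between 11.8% (Ccne1) and 62.1% (Tk1) of day 2, with a median of 23.1%. Every member still had counts in every day 10 library.

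By role, 10 of 11 genes of licensing and the fork fell. Mcm2 fell 3.95-fold (log2 -1.98 ± 0.27 (SE), adjusted p = 0.00137) and Mcm6 4.33-fold (log2 -2.11 ± 0.25 (SE), adjusted p = 0.000693), while Pcna fell only 2.26-fold (log2 -1.18 ± 0.25 (SE), adjusted p = 0.0146). Cdc6, the loader of the ring, was lower without passing (log2 -2.40 ± 0.95 (SE), adjusted p = 0.144). In nucleotide supply Rrm2, Rrm1 and Tyms fell, Rrm2 by 5.12-fold (log2 -2.36 ± 0.26 (SE), adjusted p = 0.000533), and Tk1 was not called (log2 -0.69 ± 0.41 (SE), adjusted p = 0.349). Of the S-phase entry genes only Ccne1 was called, and its fall of 8.49-fold (log2 -3.09 ± 0.36 (SE), adjusted p = 0.000693) was the largest of the 42. E2f1 (log2 -0.91 ± 0.29 (SE), adjusted p = 0.0719) and Ccne2 (log2 -2.63 ± 1.18 (SE), adjusted p = 0.198) were not.

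In mitosis, Mybl2 fell (log2 -2.63 ± 0.40 (SE), adjusted p = 0.00275) and Foxm1 narrowly missed the threshold (log2 -1.75 ± 0.51 (SE), adjusted p = 0.0532). Ccna2, Ccnb1 and Cdk1 fell, Cdk1 by 4.31-fold (log2 -2.11 ± 0.25 (SE), adjusted p = 0.000641). Cdc20 fell 4.83-fold (log2 -2.27 ± 0.31 (SE), adjusted p = 0.00138), and Ube2c was lower with a wider error (log2 -2.01 ± 0.68 (SE), adjusted p = 0.0876). Aurka, Aurkb and Birc5 fell among the kinases and the passenger complex, Aurkb by 4.4-fold (log2 -2.14 ± 0.30 (SE), adjusted p = 0.00165), and Plk1 did not pass (log2 -2.65 ± 0.96 (SE), adjusted p = 0.109). Only Bub1b of 4 checkpoint and kinetochore genes and only Kif20a and Tpx2 of 6 spindle genes were called. Neither Top2a (log2 -2.15 ± 1.24 (SE), adjusted p = 0.33) nor Mki67 (log2 -1.72 ± 0.73 (SE), adjusted p = 0.173) was, although their day 10 means were 22.6% and 30.3% of day 2 and no libraries overlapped. Each SE rests on a spread estimated over all 13 libraries, including the Epcam-positive pair, which is outside this comparison. The counts by role and class depend on whether that pair is in the fit.

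The direction held in all 42 under every fit, and the number called varied with the libraries in the fit. With the Epcam-positive pair left out, or with the 9 libraries of MEF, day 2, day 10 and Epcam-negative cells, 41 members fell, 17 of replication and all 24 of mitosis, where 15.4% and 25.1% of all genes fell. Leaving out 1 library gave 15 without day 2 replicate 1, 14 without day 2 replicate 2 and 41 without either Epcam-positive library, and 14 of the 25 were called whichever library was left out. Exon length was only weakly related to this difference over the 42 members (Pearson r = -0.12, Spearman rho = -0.05, a description over genes that share their libraries).

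**Figure D2:**
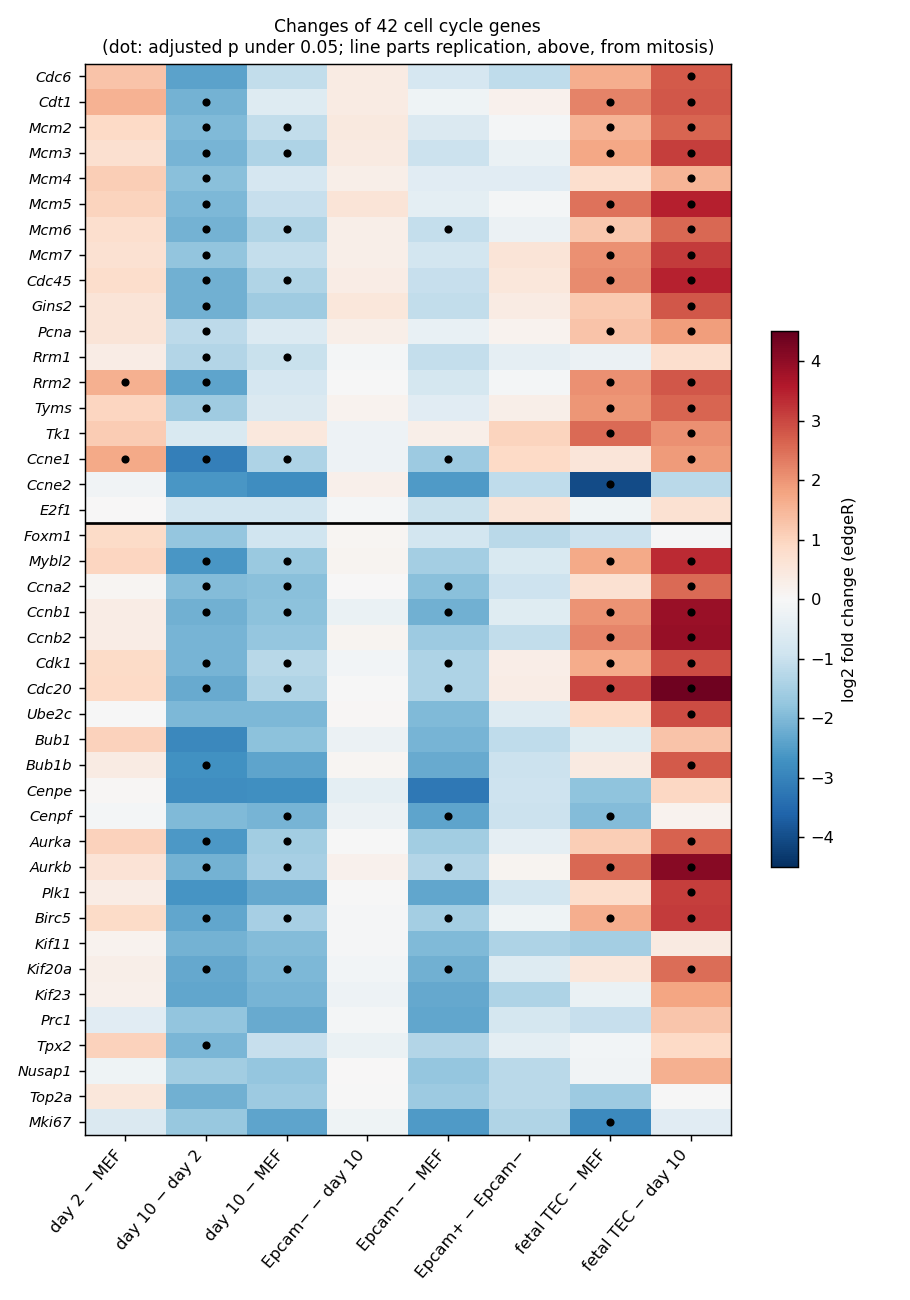
Log2 difference of each of the 42 members in the 8 comparisons, with replication genes above the line, mitosis genes below it, a colour scale from lower (blue) to higher (red) and a dot where the adjusted p was under 0.05. The columns of day 10 against day 2 and against MEF are lower throughout apart from Tk1 against MEF, and the column of Epcam-negative against day 10 holds no dot.

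Against untreated MEF, day 10 cells had less of nearly all members. Embryo sex by Xist and the macrophage markers differed between these groups too. Their part cannot be told apart from that of Cre and of time. This comparison shares the day 10 libraries with the one above. Of the 42, 16 were called lower, 6 of replication (Mcm2, Mcm3, Mcm6, Cdc45, Rrm1, Ccne1) and 10 of mitosis, and none higher, where 6.58% of all genes tested were called lower and 9.42% higher. All 24 mitosis members and 16 replication members were lower in every day 10 library than in both MEF libraries, as were 33% of all genes. Cdt1 and Tk1 overlapped. The median log2 difference was -1.06 for replication members and -1.85 for mitosis members, and the day 10 mean was a median of 48.1% of MEF in the first class and 27.8% in the second. No test of that difference between the classes was made. Over the 42 members, longer genes were lower at day 10 relative to MEF (Pearson r = -0.45, Spearman rho = -0.31, a description), and with the length offset all 16 kept their call and sign.

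Cenpf fell 4.28-fold (log2 -2.10 ± 0.58 (SE), adjusted p = 0.0374), Kif20a 4.1-fold (log2 -2.04 ± 0.46 (SE), adjusted p = 0.0151) and Ccnb1 3.6-fold (log2 -1.85 ± 0.42 (SE), adjusted p = 0.0162). Among replication genes Mcm6 was 2.55-fold lower (log2 -1.35 ± 0.25 (SE), adjusted p = 0.0058) and Mcm2 2.13-fold (log2 -1.09 ± 0.27 (SE), adjusted p = 0.0214). Rrm2, which had risen at day 2, was at 58.7% of MEF (log2 -0.77 ± 0.26 (SE), adjusted p = 0.0743). Without the Epcam-positive pair 38 members fell, where 19.4% of all genes did, and with the 9 libraries 40, where 30.2% did. Leaving out 1 library gave 5 without any one of the day 10 libraries, 6 without MEF replicate 1, 7 without MEF replicate 2 and 38 without either Epcam-positive library.

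**Figure D3:**
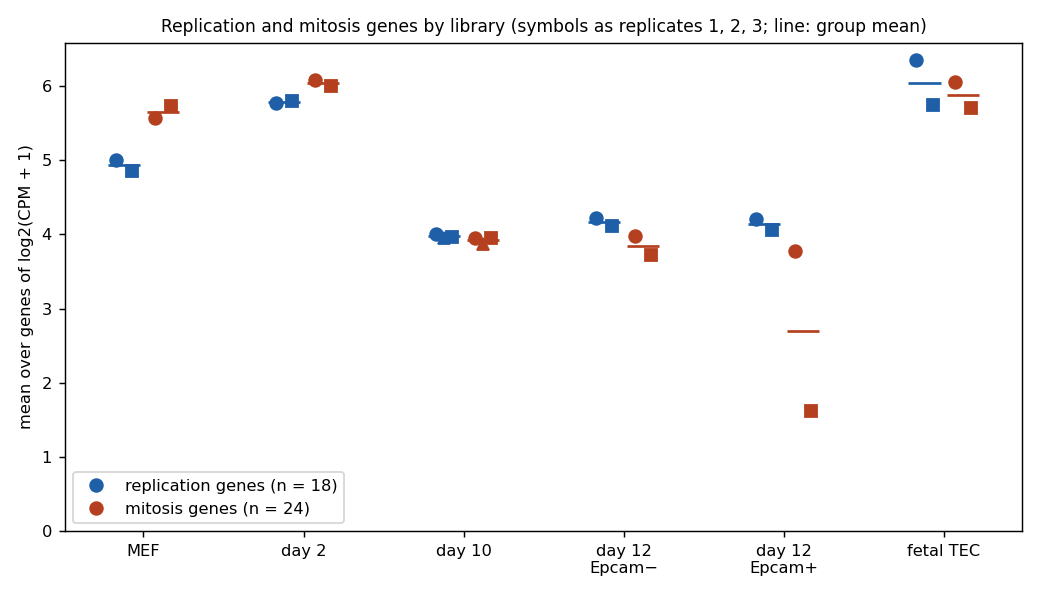
Mean of log2(CPM + 1) over the 18 replication members (blue) and the 24 mitosis members (red) in each group, with 1 point per library and a line at the group mean. Both classes are higher at day 2 than in MEF and low at day 10 and in Epcam-negative cells, and in Epcam-positive replicate 2 (square) the mitosis mean lies far below that of replicate 1 while the replication mean does not.

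The mean of log2(CPM + 1) over each class gives the course in 1 value per library. For replication it was 4.93 ± 0.11 (SD, n = 2) in MEF, 5.78 ± 0.02 (n = 2) at day 2, 3.97 ± 0.03 (n = 3) at day 10 and 4.16 ± 0.08 (n = 2) in Epcam-negative cells. For mitosis it was 5.64 ± 0.11, 6.04 ± 0.05, 3.93 ± 0.05 and 3.85 ± 0.18 in the same groups. The mitosis mean minus the replication mean was 0.72 in MEF, 0.26 at day 2, -0.05 at day 10 and -0.31 in Epcam-negative cells. Among the 5 cultured groups, day 2 had the highest mean for 16 of 18 replication members and 19 of 24 mitosis members, and no member was highest at day 10 or in Epcam-negative cells.

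Between day 10 and the Epcam-negative cells of day 12 no member was called, and none had an unadjusted p under 0.05 in edgeR, where 0.0353% of all genes were called higher and 0.0529% lower. DESeq2 called none either. The Epcam-negative mean was a median of 99.96% of day 10, from 73.5% (Cenpe) to 150.3% (Mcm5). Of the 18 replication members, 11 were higher in both Epcam-negative libraries than in all 3 of day 10, as were 2 of 24 mitosis members and 31% of all genes. Mcm5, another ring subunit, was at 19.1, 18.5 and 18.5 CPM at day 10 and at 28.7 and 27.5 CPM in Epcam-negative cells (log2 0.59 ± 0.32 (SE), adjusted p = 1). A fit of only these 5 libraries called 14 members, 11 higher and 3 lower, where 20.9% of all genes were called higher and 21.8% lower. The fit of MEF, day 2, day 10 and Epcam-negative libraries called 1 higher, where 4.6% of all genes were, so the absence of calls depends on which libraries enter the fit. Embryo sex by Xist changed between these groups and cannot be told apart from the step.

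Epcam-negative cells and MEF had the same pattern of Xist and Y-linked genes. Their summed macrophage markers differed, with 3136 to 3305 CPM in MEF and 21.4 to 23.5 CPM in Epcam-negative cells. The part of these markers cannot be told apart from that of Cre and of time. In this comparison, which shares MEF with those above, 10 members were called lower and none higher, where 4.53% of all genes tested were called lower and 7.37% higher. They were Mcm6 and Ccne1 of replication, and Ccna2, Ccnb1, Cdk1, Cdc20, Cenpf, Aurkb, Birc5 and Kif20a of mitosis. With the length offset, 8 of the 10 kept their call and sign, and 5 others gained a call. In 40 of 42 members both Epcam-negative libraries were below both MEF libraries, as in 32.8% of all genes. Kif20a was 4.51-fold lower (log2 -2.17 ± 0.52 (SE), adjusted p = 0.0264), Cdk1 2.59-fold (log2 -1.38 ± 0.28 (SE), adjusted p = 0.0117) and Mcm6 2.13-fold (log2 -1.09 ± 0.28 (SE), adjusted p = 0.0329). Without the Epcam-positive pair 33 fell, where 16.9% of all genes did, and 33 fell also without either library of that pair. None was called without either Epcam-negative library, 2 or 3 without a MEF library and 4 or 5 without a day 2 or day 10 library.

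In Epcam-positive cells the 2 libraries differed from each other in these genes, and in their markers as well. The summed fibroblast markers were 30248 CPM in replicate 1 and 2833 in replicate 2, and the summed TEC markers 4345 and 40462. Epcam itself was 4.8 and 30.6 CPM, and 5.03 to 5.53 CPM at day 10. Within the TEC sum of replicate 2, Krt8, Krt18 and Ccl25 were 11171, 13383 and 14954 CPM. Prss16 was 24.7 CPM there, against 11550 and 14175 in fetal TEC, and Psmb11 was 398, against 1785 and 2833. Epcam and Foxn1 also stood below both fetal TEC libraries, Krt18 and Dll4 between them, and Krt8 and Ccl25 above both. No member was called against Epcam-negative cells (1 had an unadjusted p under 0.05, and DESeq2 called none), where 0.241% of all genes were called higher and 0.0176% lower. With the length offset no member was called either, and the difference changed sign in 9 of the 42. Replicate 1 had no member under 1 CPM. Replicate 2 had 11 members under 1 CPM and 5 with no count (Ccne2, Bub1, Cenpe, Kif11 and Kif23), and yet 12 members at or above replicate 1, among them Mcm7 with 63.6 CPM against 27.2, Pcna with 82.7 against 49.2 and Tk1 with 33.2 against 14.6. The log2 ratio of replicate 2 to replicate 1 was lower in members of longer exon length over the 42 members (Pearson r = -0.47, Spearman rho = -0.49). Its median was -0.18 in the 21 members up to 3398 bases and -1.90 in the 21 from 3402 bases on. Some mitosis members of short exon length were low as well, such as Ccnb2 of 1531 bases (cyclin B2, named after its values were seen). It had 7.49 CPM in replicate 1 and 0.488 in replicate 2. With replicate 1 left out, 4 members were called higher and 25 lower on the length-skewed library alone, and with replicate 2 left out none was. The summed macrophage markers were 239 CPM in replicate 1 and 89.2 in replicate 2. The part of these markers in the difference was not tested. Xist was 688 to 923 CPM in the Epcam-negative pair and Y-linked genes 65.6 to 226 CPM in the Epcam-positive pair, so embryo sex and the sort cannot be told apart.

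Fetal TEC, the natural cells, had more of most replication members than MEF. Here 18 members were called higher, 11 of replication and 7 of mitosis, and 3 lower (Ccne2, Cenpf and Mki67), in a comparison in which 31.5% of all genes were called higher and 26.3% lower. The median log2 difference was 1.59 for replication members, 0.45 for mitosis members and 0.18 for all genes. Cdc20 was 8.13-fold higher (log2 3.02 ± 0.36 (SE), adjusted p = 0.000296), Aurkb 6.04-fold (log2 2.59 ± 0.35 (SE), adjusted p = 0.000501), Mcm5 5.5-fold (log2 2.46 ± 0.37 (SE), adjusted p = 0.000888) and Mcm6 2.34-fold (log2 1.23 ± 0.28 (SE), adjusted p = 0.00601). Mki67 was 7.33-fold lower (log2 -2.87 ± 0.87 (SE), adjusted p = 0.019).

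Of the 4 differences set against exon length, that of fetal TEC and MEF followed it most closely (Pearson r = -0.67, Spearman rho = -0.63 over 42 members). Mki67 and Cenpf, with exon lengths of 10061 and 11130 bases, were lower, while Cdc20 and Aurkb, of 1793 and 1955 bases, were higher. With the offset for gene length, 16 of the 21 called members kept their call and sign, and 4 others gained a call. The fold of Cdc20 went from 8.13 to 3.22 and that of Aurkb from 6.04 to 2.56, both still passing. The fold of Mcm6 went from 2.34 to 3.77, while that of Mcm5 was 5.59. Pcna, of 1518 bases, changed sign from log2 1.27 to -0.31, and Cenpf from -1.94 to 0.60, neither passing the test after the offset. Mki67 went from -2.87 to -0.41, again not passing, and Ccne2 stayed lower at -4.21. Without the Epcam-positive pair 25 members rose and 8 fell, where 39.5% of all genes rose and 34.7% fell, and 33 were called also without either of its libraries. Fetal TEC also held 692 to 1459 CPM of 12 thymocyte markers, all 12 detected, against at most 2.79 in the cultures, and 912 to 1041 CPM of macrophage markers. They held 276 to 799 CPM of 5 erythroid markers, against at most 4.27 in the cultures. Endothelial markers summed to 44.8 to 46.7 CPM, against at most 33.7. Kdr alone was 33.6 CPM in the day 10 library with that maximum, and 4.78 and 6.55 CPM in fetal TEC. Emcn, Pecam1 and Tie1 were 4.42 to 24.2 CPM in fetal TEC and at most 0.501 CPM in the cultures. Cdh5 was 2.53 and 0.122 CPM in fetal TEC and at most 0.273 CPM in the cultures. The part of such cells in the levels of cycle genes was not tested. Xist was 6.17 and 10.6 CPM in fetal TEC and Y-linked genes 41.6 and 42.3 CPM. This pattern differed from that of MEF, and its part was not tested either.

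Against day 10, fetal TEC had 28 members called higher, 15 of replication and 13 of mitosis, and none lower, where 31.7% of all genes were called higher and 27.6% lower. The median log2 difference was 2.63 for replication and 2.55 for mitosis. Cdc20 was 20.9-fold higher (log2 4.38 ± 0.33 (SE), adjusted p = 2.01e-05), Ccnb1 14.6-fold (log2 3.87 ± 0.44 (SE), adjusted p = 0.000192) and Mcm2 6.15-fold (log2 2.62 ± 0.27 (SE), adjusted p = 0.00011). Foxm1 (log2 -0.05 ± 0.52 (SE), adjusted p = 0.939) and Mki67 (log2 -0.50 ± 0.75 (SE), adjusted p = 0.577) did not pass. With the length offset 24 of the 28 called members kept their call and sign, none of the 28 changed sign, and 7 others were called higher: Foxm1, Mki67, Cenpe, Cenpf, Rrm1, Tpx2 and Nusap1. Among them Mki67 went from log2 -0.50 to 1.95 (edgeR adjusted p = 0.00106), Foxm1 from -0.05 to 0.86 (adjusted p = 0.0351) and Cenpf from 0.16 to 2.68 (adjusted p = 0.000226). The fold of Cdc20 was 8.96 and that of Ccnb1 8.88 with the offset, and that of Mcm2 6.09. Without the Epcam-positive pair 36 members rose and 1 fell, where 39.6% of all genes rose and 35.7% fell.

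**Figure D4:**
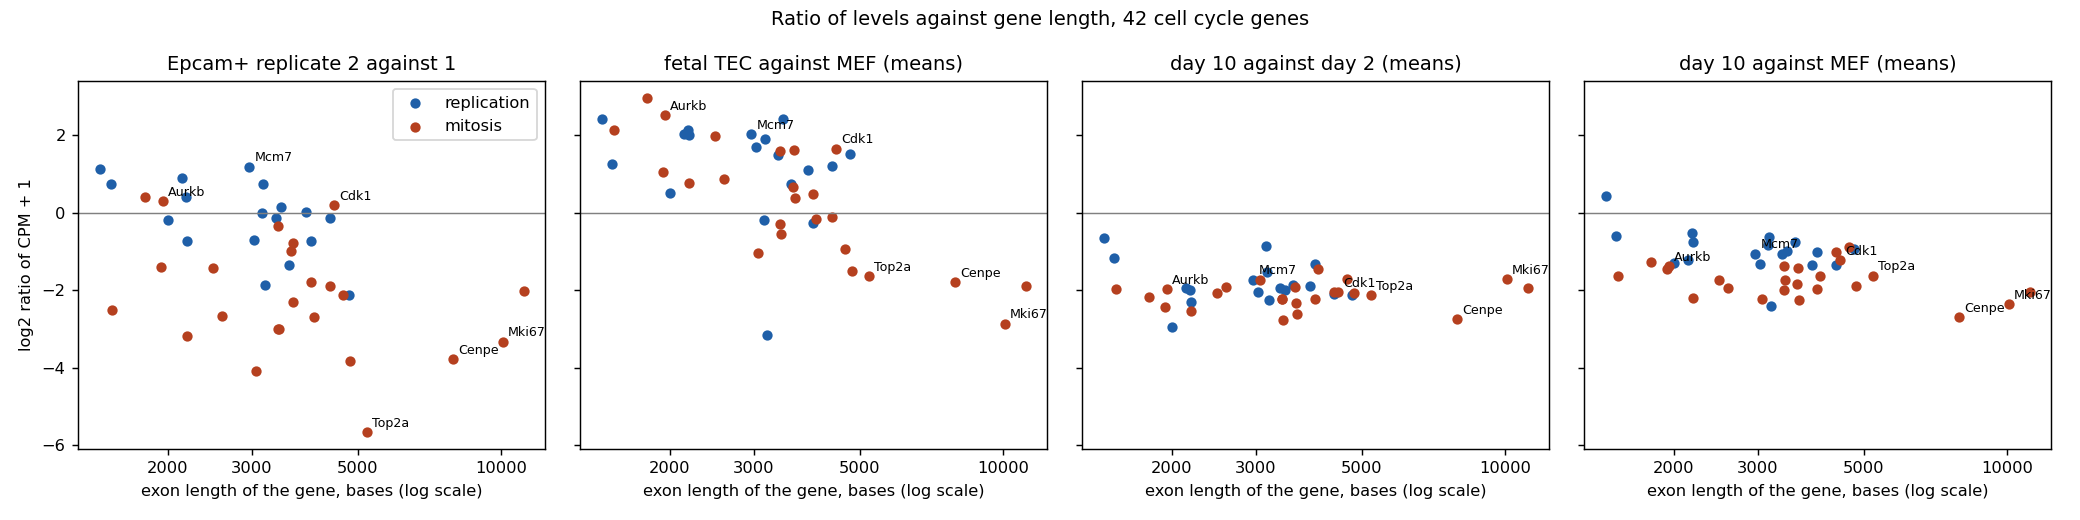
Log2 ratio of CPM + 1 against exon length in bases (log axis) for the 42 members, in 4 panels: Epcam-positive replicate 2 over replicate 1, fetal TEC over MEF, day 10 over day 2 and day 10 over MEF. Ratios are lower in longer genes in the first pair of panels (Spearman rho = -0.49 and -0.63), less so in the last (rho = -0.31), and show little relation in day 10 over day 2 (rho = -0.05).

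Other genes of the cycle were counted from lists of the same pathways. Of 42 further replication genes, 14 fell from day 2 to day 10 and none rose, with a median log2 difference of -1.51, where 4.41% of all genes fell and 8.24% rose. Those shares are the background for each list from day 2 to day 10. Pola2, a subunit of the primase polymerase, is an example (log2 -2.01 ± 0.25 (SE), adjusted p = 0.000823), as is Lig1, the ligase that joins Okazaki fragments (log2 -1.84 ± 0.29 (SE), adjusted p = 0.0031). Slbp, which binds histone mRNA, fell as well (log2 -1.41 ± 0.22 (SE), adjusted p = 0.00333). Of 48 further mitosis genes in the table, 19 fell and none rose, with a median of -2.09. Melk (log2 -2.50 ± 0.28 (SE), adjusted p = 0.000507), Cdca8, another passenger subunit (log2 -2.02 ± 0.23 (SE), adjusted p = 0.000631), and Ckap2 (log2 -2.30 ± 0.30 (SE), adjusted p = 0.00112) had the smallest p. From MEF to day 2, none of the 42 further replication genes and 1 of the 48 further mitosis genes rose, and none fell, where 2.87% of all genes rose and 2.65% fell. The further lists were counted in the fit of all 13 libraries only.

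Of 22 genes of G1 control, Myc, a growth-promoting transcription factor, and Cdc25a, the phosphatase that releases Cdk2, fell from day 2 to day 10 and none rose. Myc had 51.5 and 54.2 CPM in MEF, 42.9 and 43.6 at day 2, 11.7, 12 and 11.4 at day 10, 7.7 and 8.2 in Epcam-negative cells, 16.6 and 7.75 in Epcam-positive cells and 105 and 65.9 in fetal TEC. Cdc25a had 26.4 and 23.7 CPM in MEF, 36.9 and 37.3 at day 2, 18.9, 17.6 and 19.2 at day 10, 21 and 22.2 in Epcam-negative cells, 16.9 and 18.5 in Epcam-positive cells and 28.7 and 27.6 in fetal TEC. Myc fell 3.68-fold (log2 -1.88 ± 0.33 (SE), adjusted p = 0.00558) and Cdc25a 2.0-fold (log2 -1.0 ± 0.23 (SE), adjusted p = 0.0197). Ccnd1, cyclin D1, was higher at day 10 without passing (log2 0.87 ± 0.26 (SE), adjusted p = 0.0524). Of 7 CDK inhibitors, Cdkn1c, which encodes p57, rose from day 2 to day 10 (log2 3.15 ± 0.47 (SE), adjusted p = 0.00249) and none fell. Cdkn1c had 57.9 and 78.2 CPM in MEF, 2.45 and 2.26 at day 2, 19.9, 19.9 and 23.1 at day 10, 9.15 and 9.2 in Epcam-negative cells, 13.4 and 43.4 in Epcam-positive cells and 352 and 388 in fetal TEC. All 3 day 10 libraries stood above both day 2 libraries and below both MEF libraries, so the day 10 level of this inhibitor lay between the other two groups. Cdkn1a, which encodes p21, (log2 0.85 ± 0.41 (SE), adjusted p = 0.23) and Cdkn2b, which encodes p15, (log2 0.48 ± 0.43 (SE), adjusted p = 0.576) did not pass. Cdkn1a had 440 and 470 CPM at day 2 and 815, 817 and 828 at day 10. Cdkn2b had 42.8 and 39.9 CPM at day 2 and 57.7, 58.2 and 57 at day 10. The fit also held the Epcam-positive pair, with 792 and 2296 CPM of Cdkn1a and 53.1 and 191 of Cdkn2b. By sign alone, 4 of the 7 inhibitors were higher at day 10 than at day 2 and 3 were lower.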

How the data were processed

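RNA was sequenced from 13 libraries in 6 groups. The authors deposited raw counts of reads per gene in 1 table. Per the submitters' processing notes, FastQC, Trimmomatic, HISAT2, SAMtools, StringTie and DESeq2 were used with the mm10 genome. Their settings, and how the counting treated strand and ambiguous reads, are not given in the sources used here. Table columns named No_Cre were taken as the 2 untreated MEF libraries, the only cultured group without Cre. Of 24394 genes, 4044 had no count in any library and 17004 passed edgeR's filter on low counts, all 42 members among them. Counts were fitted in edgeR 4.0.16 (R 4.3.3) with TMM factors (0.705 to 1.16), 1 mean per group over all 13 libraries and the robust quasi-likelihood test. A call is a Benjamini-Hochberg adjusted p under 0.05 over all genes tested. The script was tested on simulated data. The members and lists were chosen with earlier results of these data known. Values in every library are given for 27 members: those of highest mean CPM in each of 10 roles, plus 8 chosen by name. Alternatives were other scalings, no filter, DESeq2 1.42.0, fewer groups, a gene length offset, a replicate block and leaving out each library. Exon lengths and positions came from GENCODE and cover 95.7% of symbols. Promoters came from RefSeq (GRCm38.p6) over 250 bases. No replicate pair held identical values.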

Additional observations from a re-analysis of the deposited data

How the results depend on the processing

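Values are counts of members called unless said otherwise. With only the groups compared in the fit, the count was 11 for day 2 against MEF, 42 for day 10 against day 2, 40 for day 10 against MEF, 14 for Epcam-negative cells against day 10 and 32 for Epcam-negative cells against MEF. Without the Epcam-positive pair it was 18, 41 and 38 for the first 3 of these, 33 for Epcam-negative cells against MEF and 33 for fetal TEC against MEF. With MEF, day 2, day 10 and Epcam-negative libraries only, it was 24, 41, 40, 1 and 40. DESeq2 called 9 for day 2 against MEF and 22 for Epcam-negative cells against MEF, the length offset 4 for day 2 against MEF, and library size alone 8 for day 10 against MEF and 2 for Epcam-negative cells against MEF. The cause was not tested. Same-numbered libraries did not deviate together (correlations -0.215 to 0.116), so the numbers were not taken as pairs. A replicate block gave 0 for day 2 against MEF, 14 for day 10 against day 2, 2 for day 10 against MEF and 2 for Epcam-negative cells against MEF, and moved no other count by over 1.5 times. With the MEF numbers crossed, an alternative chosen after seeing the data, the block gave 1 for day 2 against MEF. Leaving out 1 library, where a lone library is assumed to vary like the other groups, gave 0 to 17 for day 2 against MEF, 14 to 41 for day 10 against day 2, 5 to 38 for day 10 against MEF, 0 to 0 for Epcam-negative cells against day 10, 0 to 33 for Epcam-negative cells against MEF, 0 to 29 for Epcam-positive against Epcam-negative cells, 16 to 33 for fetal TEC against MEF and 25 to 37 for fetal TEC against day 10. Over the 102 called differences of single members, 2195 alternative values were computed, of which 1883 kept sign and call, 310 kept the sign without passing and 2 changed sign: with the length offset in fetal TEC against MEF, Pcna was -0.31 and Cenpf 0.60 (log2). With a pseudocount of 0.25 CPM in place of 1, day 10 minus day 2 was -1.89 for the replication mean and -2.19 for the mitosis mean.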

Other observations

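The lists of further cycle genes were also counted in the comparisons with fetal TEC and between day 10 and MEF, by edgeR's quasi-likelihood test with adjusted p under 0.05. Of 42 further replication genes, 17 rose and 2 fell in fetal TEC against MEF, and 22 rose and none fell against day 10. The shares of all genes called higher and lower were 31.5% and 26.3% against MEF and 31.7% and 27.6% against day 10. Of 48 further mitosis genes, 14 rose and 5 fell against MEF, and 26 rose and 1 fell against day 10. From MEF to day 10, none of either list rose, while 5 of the replication genes and 14 of the mitosis genes fell, where 9.42% of all genes rose and 6.58% fell. Of the 7 CDK inhibitors, 2 rose and 4 fell in fetal TEC against MEF, and 2 rose and 4 fell against day 10. These comparisons share their MEF, day 10 or fetal TEC libraries, and these counts were not repeated with a length offset. The fetal TEC libraries are among those in which genes of long exon length were low.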
